A study of Mus musculus with 12 samples.

Results

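In the distal mouse sciatic nerve, 128 RNAs stood far below their day 0 level on all 3 days sampled after a crush: day 3, day 7 and day 14. They were chosen from the authors' log2 values, averaged over the 3 arrays of each time point: the mean of each later day had to lie at least 2.5 below day 0 (5.66-fold). The day 0 mean also had to be at least 8, and the feature well above background on all 3 day 0 arrays. These conditions were met by 140 of the 90752 features on the array, or 0.433% of the 32333 features that passed the conditions on day 0 (called eligible here). Features sharing at least 25 bases were counted as 1 RNA, so 116 RNAs were read by 1 probe and 12 by 2. Probes that do not overlap can still read the same transcript, and such probes are counted as separate RNAs here. Since the differences from day 0 chose these RNAs, they are given as a description with no test, and tests are given only for differences between later days. The rule set no condition on those differences, but it bounded the level of each later day that enters them.

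The series used 72 C57Bl6 mice of about 2 months, the day 0 group included. The crush was of the right sciatic nerve, for 30 s at the upper thigh. It left the outer sheath whole, and a ligature marked the crush site. The distal 0.5 cm was taken at day 0, day 3, day 7 or day 14, from 18 mice at each time. RNA of 6 mice was pooled on each of 12 one-colour arrays, so every value is a pool of animals and each time point has 3 such pools. No uncrushed nerve beyond the day 0 group enters here. In RNA of a whole nerve segment, fewer cells of a type and less RNA per cell cannot be told apart.

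Cut off from the nerve cell body, axons beyond a crush break down in a process called Wallerian degeneration. The Schwann cells that wrapped them shut down much of their myelin programme and take on a repair state, while macrophages enter and clear debris. Axons that regrow through the segment come back into contact with Schwann cells, which then differentiate and make myelin again.

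Features of the array are known by an ID and a 60-base probe sequence, and the files mark them as unmapped. None of the 140 probes matched a mouse RefSeq promoter window or miRNA hairpin, so no gene name, place in the genome or coding status is given for any of them. The windows ran from 250 bases before to 50 bases after a transcription start. A probe further along a known transcript would not match, so the lack of matches does not show that these RNAs are unannotated. Only 2 of 161 listed marker genes of nerve, immune, muscle and fat cells could be tied to a probe, which was too few to check the tissue label against its markers. The probes below are those of the 10 RNAs with the largest mean fall over the 3 later days, shown because they identify the transcripts behind the largest differences. The capitals mark AATAAA, the hexamer that directs cleavage and polyadenylation near the 3′ end of many transcripts.
MOUSELNCRNA_34239: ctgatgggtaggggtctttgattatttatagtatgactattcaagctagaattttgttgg
MOUSELNCRNA_44824: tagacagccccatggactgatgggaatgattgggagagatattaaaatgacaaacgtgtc
MOUSELNCRNA_21372: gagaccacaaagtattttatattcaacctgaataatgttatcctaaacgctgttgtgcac
MOUSELNCRNA_83986: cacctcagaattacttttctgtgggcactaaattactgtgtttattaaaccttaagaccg
MOUSELNCRNA_84271: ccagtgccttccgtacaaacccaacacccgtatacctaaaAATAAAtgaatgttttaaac
MOUSELNCRNA_56176: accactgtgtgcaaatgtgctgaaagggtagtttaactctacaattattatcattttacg
MOUSELNCRNA_51578: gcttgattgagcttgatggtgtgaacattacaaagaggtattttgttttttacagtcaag
MOUSELNCRNA_39546: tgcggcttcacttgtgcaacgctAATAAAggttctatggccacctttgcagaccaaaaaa
MOUSELNCRNA_77066: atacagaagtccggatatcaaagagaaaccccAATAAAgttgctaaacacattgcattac
MOUSELNCRNA_32019: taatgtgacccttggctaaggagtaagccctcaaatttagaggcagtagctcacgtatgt

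Further probes are shown because their RNAs moved most between day 3 and day 14 or gave the brightest signals at day 0.
MOUSELNCRNA_29980: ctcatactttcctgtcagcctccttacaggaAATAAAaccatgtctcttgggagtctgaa
MOUSELNCRNA_12955: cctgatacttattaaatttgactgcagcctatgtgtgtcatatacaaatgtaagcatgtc
MOUSELNCRNA_36228: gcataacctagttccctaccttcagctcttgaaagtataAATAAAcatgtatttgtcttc
MOUSELNCRNA_44814: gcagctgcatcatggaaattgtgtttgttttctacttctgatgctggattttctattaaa
MOUSELNCRNA_19351: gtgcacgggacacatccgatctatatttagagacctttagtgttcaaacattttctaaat
MOUSELNCRNA_25722: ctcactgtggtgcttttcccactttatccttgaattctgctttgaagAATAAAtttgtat
MOUSELNCRNA_31142: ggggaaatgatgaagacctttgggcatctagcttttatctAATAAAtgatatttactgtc

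From 64.2% to 79.5% of an array's spots passed the scanner software's test for well above background, and none was saturated. Hybridisation used 3 slides. Slide 1 held 2 arrays each of day 0 and day 3, slide 2 held 1 of day 0, 1 of day 3 and 2 of day 7, and slide 3 held 1 of day 7 and all 3 of day 14. No slide held day 14 together with day 0 or day 3, so for those pairs of days slide and time can be separated only through the day 7 arrays, in a fit with additive slide terms that rests on the lone day 7 array of slide 3. The labels call the pools biological replicates, and with 3 arrays a day their number limits the precision.

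The 128 RNAs differed widely in signal and in the day of their lowest level. Their median log2 value was 10.38 at day 0, 6.28 at day 3, 6.04 at day 7 and 6.91 at day 14. The median difference from day 0 was -4.14 at day 3, -4.40 at day 7 and -3.20 at day 14, which left 5.66%, 4.74% and 10.9% of the day 0 signal in the median RNA. Differences ran from -8.36 to -2.53 at day 3, from -9.74 to -2.51 at day 7 and from -7.60 to -2.51 at day 14. Among the 32193 other eligible features, the median difference was -0.03 at day 3, -0.03 at day 7 and -0.01 at day 14. RNAs at 5 or more below day 0 numbered 34 at day 3, 52 at day 7 and 9 at day 14. By mean signal, values at background included, day 7 was the lowest day for 73 RNAs, day 3 for 40 and day 14 for 15.

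The difference is also described array by array, on the same arrays that chose the RNAs. Relative to each RNA's day 0 mean, the median over the 128 RNAs was -4.24, -4.15 and -4.22 on the day 3 arrays. The day 7 arrays gave -4.39, -4.36 and -4.45. Those of day 14 gave -3.17, -2.85 and -3.62. Arrays of day 3 and of day 7 lay close together, and the day 14 arrays lay higher and farther apart. The median SD between the 3 arrays of a day was 0.19 at day 0, 0.35 at day 3, 0.32 at day 7 and 0.49 at day 14.

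**Figure D1:**
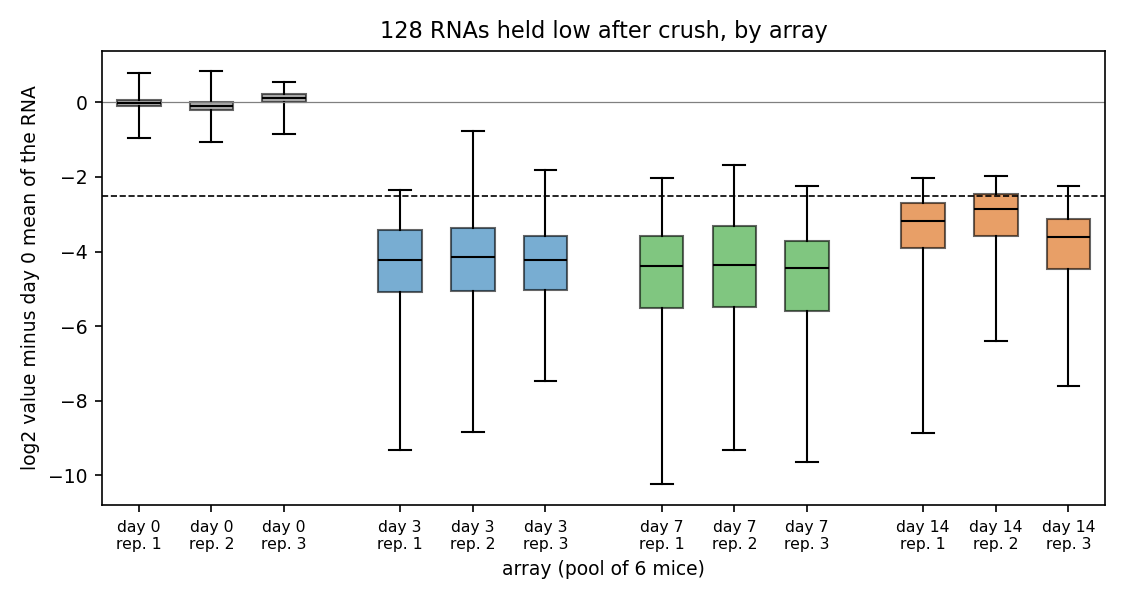
Log2 value minus the RNA's own day 0 mean on the y axis for the 128 RNAs on each of 12 arrays, in order of day on the x axis. Boxes span the quartiles with the median as a line, whiskers reach the lowest and highest RNA, and the dashed line marks the 2.5 of the rule. The day 3 medians lie between -4.24 and -4.15, the day 7 medians between -4.45 and -4.36 and the day 14 medians between -3.62 and -2.85.

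For all 128 RNAs every one of the 9 later arrays lay below every day 0 array. Such a separation held for 16.2% of all eligible features, and for the 128 RNAs the rule nearly requires it, so nothing is read from it. The gap between the highest later array and the lowest day 0 array had a median of 2.45 and was as small as 0.13. In 59 RNAs that gap was itself 2.5 or more.

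Between arrays of the same slide the differences were of like size. On slide 1 the median difference of day 3 from day 0 was -4.12, and on slide 2 it was -4.33. On slide 2 the median difference of day 7 from day 0 was -4.66. All 128 RNAs were below day 0 in each of these 3 comparisons. The rule chose the RNAs on the means of these same arrays, which nearly fixes that sign, so nothing is read from it. No slide gives such a value for day 14 against day 0, and with slide as a fixed block that median was -3.30.

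Many of these RNAs dropped to the limit of the array. At day 3, 92 RNAs were well above background on all 3 arrays and 7 on none. At day 7 these numbers were 81 and 20, and at day 14 they were 97 and 12. A total of 72 RNAs stayed measurable on all 9 later arrays, and 2 were on none of them. For an RNA seen on no array of a day only a bound can be given, formed on each array against its own signal or the dimmest feature well above background, whichever was brighter. By that bound the RNAs were at least 19.3-fold to 276-fold lower at day 3, at least 19.9-fold to 459-fold at day 7 and at least 9.39-fold to 43.8-fold at day 14. With these bounds in place of the measured values of the RNAs on no array, all 128 RNAs still met the threshold on each day. The other RNAs kept their measured values, which met the threshold by the rule. Of those, 29 at day 3, 27 at day 7 and 19 at day 14 were seen on only some arrays of the day. No bound was formed for them.

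The size of the fall did not follow the day 0 signal, with a Pearson r of 0.004 across the 128 RNAs between the day 0 mean and the mean of the 3 differences. The RNAs share the same arrays, and signals below background limit how far a dim RNA can be seen to fall.

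MOUSELNCRNA_34239 had the largest mean fall. Its log2 values were 12.09, 11.75 and 12.12 at day 0, 3.55, 3.15 and 4.83 at day 3, 1.74, 2.65 and 2.35 at day 7, and 3.12, 5.59 and 4.45 at day 14. The later arrays all lay at least 6.16 below the day 0 arrays. It was well above background on no array of day 3 or day 7 and on 1 array of day 14, so it was at least 276-fold lower at day 3 and at least 459-fold lower at day 7.

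MOUSELNCRNA_44824 had log2 values of 12.50, 12.56 and 13.03 at day 0, 3.36, 4.42 and 5.22 at day 3, 3.48, 4.48 and 3.23 at day 7, and 7.97, 8.71 and 6.80 at day 14. Here day 3 and day 7 overlapped near background, and all day 14 arrays lay above both. At day 14 the RNA was still 29.2-fold below day 0.

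MOUSELNCRNA_21372 had log2 values of 11.86, 11.76 and 11.91 at day 0, 6.68, 5.43 and 6.76 at day 3, 4.19, 4.59 and 4.22 at day 7, and 5.27, 6.16 and 4.22 at day 14. By mean signal its lowest day was day 7, where it was well above background on only 1 array. It was so on 3 arrays of day 3 and 2 of day 14. The day 14 arrays overlapped with those of day 3 and with those of day 7.

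MOUSELNCRNA_83986 lay between 10.65 and 10.92 on the day 0 arrays, and its log2 values were 3.37, 3.39 and 4.63 at day 3, 1.76, 2.98 and 1.76 at day 7, and 7.11, 7.42 and 5.92 at day 14. It was on no array of day 7, where it was at least 208-fold lower than at day 0, and on all 3 arrays of day 14. The day 14 arrays stood apart from day 3 and day 7 on the upper side.

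MOUSELNCRNA_84271 and MOUSELNCRNA_56176 were well above background on all 12 arrays. MOUSELNCRNA_84271 had log2 values of 13.57, 13.41 and 13.93 at day 0, 7.43, 7.72 and 7.32 at day 3, 5.74, 6.65 and 6.15 at day 7, and 8.17, 9.42 and 6.95 at day 14. MOUSELNCRNA_56176 had log2 values of 12.69, 12.60 and 12.69 at day 0, 7.55, 6.35 and 7.63 at day 3, 5.02, 5.73 and 5.44 at day 7, and 6.36, 7.29 and 5.44 at day 14. For MOUSELNCRNA_84271 the day 14 arrays ranged across the values of day 3. For MOUSELNCRNA_56176 the day 14 arrays overlapped with those of day 3 and with those of day 7, while all day 3 arrays lay above all day 7 arrays. Its day 3 replicates 1 and 3 lay above every day 14 array.

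MOUSELNCRNA_51578 was on no array of day 3 or day 7. Its log2 values were 9.06, 8.90 and 9.33 at day 0, 2.09, 2.01 and 1.68 at day 3, 1.69, 2.31 and 1.68 at day 7, and 5.11, 5.48 and 3.77 at day 14. It was thus at least 42.4-fold lower at day 3 and at least 77.9-fold lower at day 7, and it was seen again on 2 arrays of day 14.

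MOUSELNCRNA_39546, MOUSELNCRNA_77066 and MOUSELNCRNA_32019 complete the 10. Their means at day 0, day 3, day 7 and day 14 were 10.82, 4.54, 4.14 and 5.63 for MOUSELNCRNA_39546, with SDs of 0.13, 0.37, 0.53 and 0.74 (n = 3 each). For MOUSELNCRNA_77066 the means were 13.95, 7.42, 6.32 and 10.52, with SDs of 0.09, 0.34, 0.59 and 0.48 (n = 3 each). For MOUSELNCRNA_32019 they were 10.66, 4.97, 3.55 and 5.97, with SDs of 0.08, 0.07, 0.54 and 0.67 (n = 3 each). MOUSELNCRNA_39546 was well above background on no day 7 array, where it was at least 97.2-fold lower than at day 0. MOUSELNCRNA_32019 was well above background on 1 day 7 array. All 3 RNAs had their lowest mean signal at day 7.

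**Figure D2:**
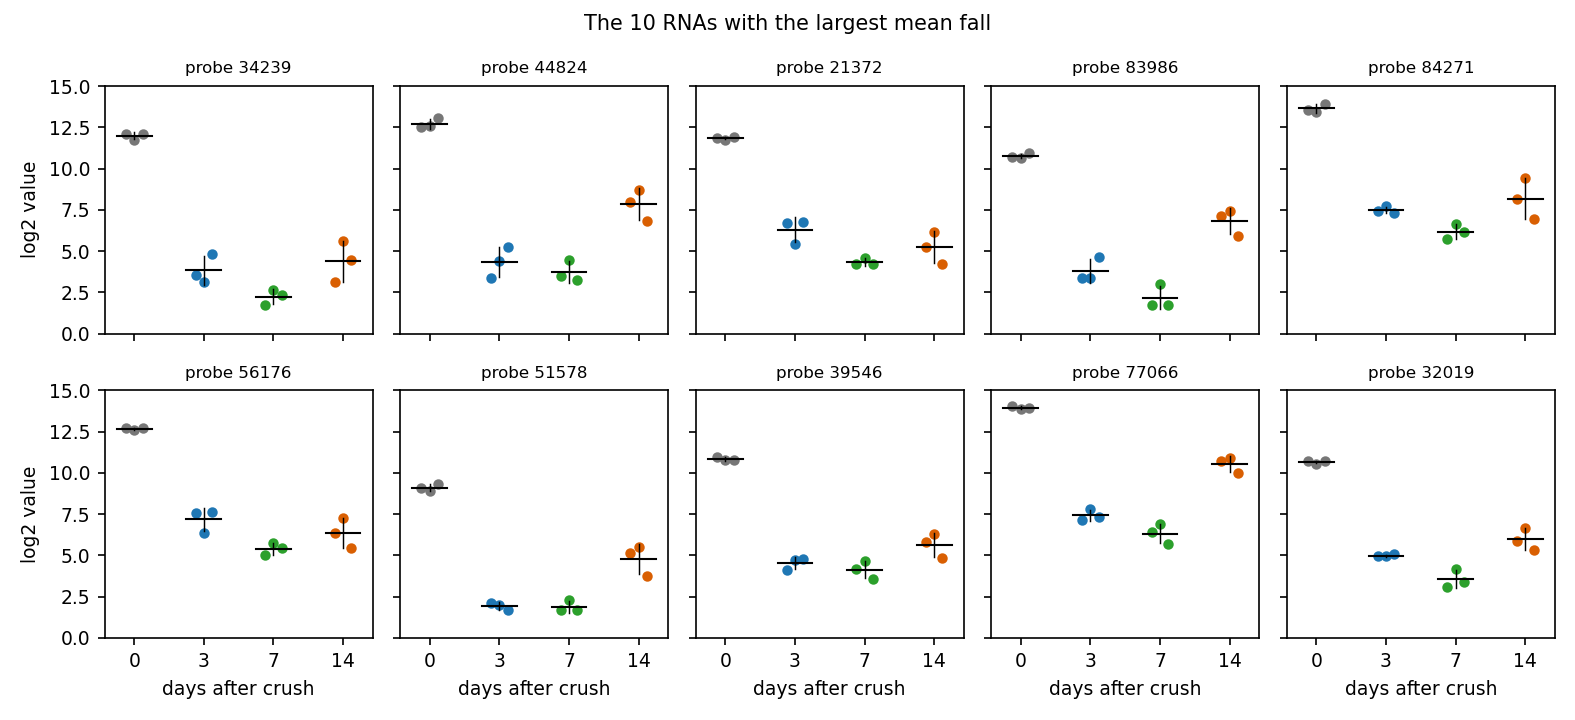
Log2 value on the y axis against days after crush for the 10 RNAs with the largest mean fall. Points are the 3 arrays of a day, horizontal lines their mean and vertical lines 1 SD on either side. Values near the bottom of a panel can lie at background, so day 3 and day 7 have no order in MOUSELNCRNA_34239 and MOUSELNCRNA_51578, which were on no array of either day. The day 14 points overlap those of day 3 in MOUSELNCRNA_34239, MOUSELNCRNA_21372, MOUSELNCRNA_84271 and MOUSELNCRNA_56176 and lie above them in the other panels.

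The 3 features with the brightest signals at day 0 followed different courses after day 3. Signals of different probes depend on the probe as well as on the RNA, so their order is no order of amounts. MOUSELNCRNA_25722 had log2 values of 16.99, 16.78 and 16.96 at day 0, 12.62, 12.89 and 12.80 at day 3, 10.47, 10.93 and 10.53 at day 7, and 14.14, 14.44 and 13.29 at day 14. The days did not overlap. MOUSELNCRNA_31142 had log2 values of 15.57, 16.49 and 15.52 at day 0, 12.48, 12.78 and 12.20 at day 3, 13.83, 12.89 and 11.92 at day 7, and 12.41, 13.20 and 13.61 at day 14, and its 3 later days overlapped one another. MOUSELNCRNA_29980 averaged 15.71 ± 0.12 at day 0, 9.63 ± 0.40 at day 3, 10.26 ± 0.06 at day 7 and 13.20 ± 0.51 at day 14 (SD, n = 3 each), so that day 3 was its lowest day.

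Day 14 was compared with day 7 to ask how the levels moved in the second week. Of the 128 RNAs, 63 rose and 3 fell at a limma adjusted p below 0.05, and 62 were not called. Over all 62803 features tested in the same fit, 5.61% rose and 4.35% fell, against 49.2% and 2.34% of the 128 RNAs. The median log2 change was 0.95 over the 128 RNAs and -0.05 over all features. Of the 63 RNAs that rose, 58 did so by 2-fold or more, with a median of 2.02, and 13 were on no day 7 array. Among those 13, MOUSELNCRNA_12983 and MOUSELNCRNA_54934 were on no day 14 array either. Their calls compare signals at background and show no rise. All 128 RNAs entered the fit through day 0, so the counts include RNAs at background on later days. The rule caps each later day at 2.5 below day 0, so an RNA that came back further is not among the 128.

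Among the named RNAs that rose at day 14 over day 7 were MOUSELNCRNA_83986, MOUSELNCRNA_77066 and MOUSELNCRNA_44824. MOUSELNCRNA_83986 was on no day 7 array, and day 14 was at least 13.5-fold above day 7. The fit on measured signals, with day 7 at background, gave limma adjusted p = 4.87e-05, which does not test that bound. MOUSELNCRNA_77066, measured on all 12 arrays, rose by 4.28 (SE 0.31, limma adjusted p = 2.06e-05). MOUSELNCRNA_44824, seen on 1 day 7 array, rose by 4.24 (SE 0.52, limma adjusted p = 0.00063). Of the brightest RNAs, MOUSELNCRNA_25722 rose by 3.22 (SE 0.26, limma adjusted p = 4.07e-05), and MOUSELNCRNA_31142 was not called, at 0.16 (SE 0.44, limma adjusted p = 0.869).

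MOUSELNCRNA_19351 was one of the 3 RNAs that fell further. Its log2 values were 6.01, 5.98 and 5.50 at day 14, against 7.21, 7.64 and 7.64 at day 7. The groups did not overlap, and the change was -1.77 (SE 0.28, limma adjusted p = 0.00267). For MOUSELNCRNA_21372 and MOUSELNCRNA_56176 the change of day 14 against day 7 was not called, at 0.82 (SE 0.45, limma adjusted p = 0.3) and 0.95 (SE 0.44, limma adjusted p = 0.225).

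Slide 3 held 1 day 7 array and all day 14 arrays. On it, 105 of the 128 RNAs were higher and 23 lower at day 14 than at day 7, with a median difference of 1.02. A fit within that slide called 9 RNAs higher and 1 lower, with a spread taken from the 3 day 14 arrays alone and assumed for the lone day 7 array. MOUSELNCRNA_77066 was still called there, whereas MOUSELNCRNA_83986, MOUSELNCRNA_44824, MOUSELNCRNA_25722 and MOUSELNCRNA_19351 were not, with limma adjusted p of 0.0641, 0.0866, 0.0659 and 0.0934. With slide as a fixed block, 46 rose and 2 fell, and 45 of the 46 were among the 63. Over all 62803 features tested, 2073 rose and 1404 fell in that fit.

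The rule keeps day 14 at least 2.5 below day 0, so no RNA could regain all of its fall and the shares are capped. For the 20 RNAs on no day 7 array the share also rests on signals at background. From day 7 to day 14 the median RNA regained 21.4% of its log2 difference from day 0, with quartiles of 6.09% and 39.6%. The highest share was 61.2%, and 15 RNAs regained 50% or more.

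**Figure D3:**
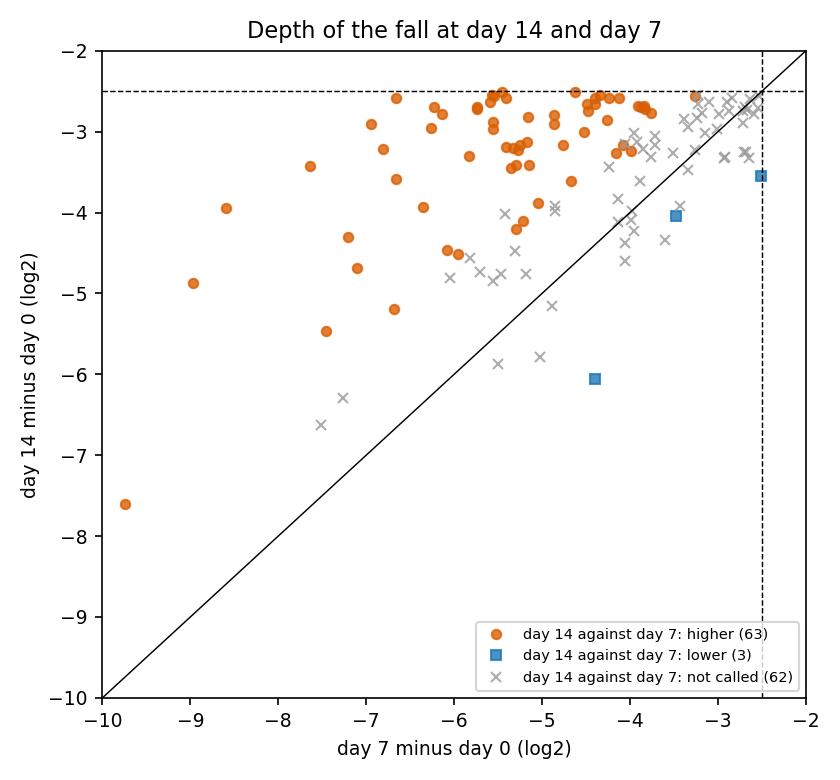
Difference of day 14 from day 0 on the y axis against the difference of day 7 from day 0 on the x axis, both in log2 units of the authors' table, with 1 mark per RNA. The solid line marks equal differences and the dashed lines the 2.5 of the rule. The 63 RNAs that rose in the limma fit lie above the line and the 3 that fell lie below it.

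Day 14 was also compared with day 3, the first day sampled after the crush. Here 51 RNAs rose, 14 fell and 63 were not called, that is 39.8% up and 10.9% down, against 21.9% and 32.8% of all features tested. The median log2 change was 0.58 over the 128 RNAs and -0.16 over all features. A change of 2-fold or more was found for 41 of the rises and 7 of the falls. In 3 of the rises the RNA was on no day 3 array, and in 5 of the 14 falls it was on no day 14 array. Under quantile normalization, which moved the median of all features to 0.01, 63 rose and 5 fell, and all 51 rises were among those 63. Over all 62803 features tested, 17511 rose and 16183 fell under that normalization. For the 51 RNAs that rose, the median log2 value was 10.75 at day 0, 5.82 at day 3, 6.03 at day 7 and 7.86 at day 14. For the 14 that fell it was 9.79 at day 0, 6.28 at day 3, 4.31 at day 7 and 5.48 at day 14.

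MOUSELNCRNA_29980 rose most among the 128. Its log2 values were 13.28, 13.66 and 12.64 at day 14, against 9.18, 9.92 and 9.79 at day 3. The change was 3.49 (SE 0.25, limma adjusted p = 4.03e-06), yet day 14 was still 5.72-fold below day 0. MOUSELNCRNA_12955 changed by 3.22 (SE 0.30, limma adjusted p = 1.87e-05). It was seen on 2 arrays at day 14 and on none at day 3, which gave a bound of at least 3.22-fold. MOUSELNCRNA_36228 had log2 values of 10.80, 11.05 and 9.87 at day 14, against 7.15, 7.43 and 7.29 at day 3, which differed by 3.21 (SE 0.28, limma adjusted p = 1.33e-05).

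Among the falls of day 14 against day 3, MOUSELNCRNA_44814 had log2 values of 2.90, 3.78 and 2.00 at day 14, against 5.79, 5.32 and 6.94 at day 3. Since it was on no day 14 array, only a bound is given for the size: day 14 was at least 2.32-fold below day 3. The fit on measured signals, those at background included, gave limma adjusted p = 0.000205, which does not test that bound. MOUSELNCRNA_19351 changed by -2.03 (SE 0.28, limma adjusted p = 0.000233), with all day 14 arrays below all day 3 arrays. MOUSELNCRNA_21372, seen on 2 day 14 arrays, changed by -1.43 (SE 0.45, limma adjusted p = 0.0207). The call of MOUSELNCRNA_21372 rested on single arrays: its limma adjusted p was 0.0735 when day 3 replicate 1 was left out, 0.0532 when day 3 replicate 3 was and 0.0617 when day 14 replicate 3 was. Under quantile normalization it was 0.0657.

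With slide as a fixed block, 25 RNAs rose and 2 fell at day 14 against day 3. Among them were 23 of the 51 rises and 2 of the 14 falls. Over all 62803 features tested, 4801 rose and 6656 fell in that fit. The block links these days through slide 2 and the lone day 7 array of slide 3. Under it MOUSELNCRNA_29980, MOUSELNCRNA_12955 and MOUSELNCRNA_36228 were still called higher and MOUSELNCRNA_44814 and MOUSELNCRNA_19351 lower, while MOUSELNCRNA_21372 was not called (limma adjusted p = 0.399).

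Day 7 was compared with day 3 to follow the first days after the initial drop. A total of 43 RNAs fell, 5 rose and 80 were not called. That is 33.6% down and 3.91% up, against 18.6% and 15.7% of all features tested. The median log2 change was -0.50 over the 128 RNAs and -0.11 over all features. A change of 2-fold or more was found for 32 of the falls and 3 of the rises. In 9 of the falls the RNA was on no day 7 array. Among those 9, MOUSELNCRNA_34239 and MOUSELNCRNA_54934 were on no day 3 array either, so their calls compare signals at background and show no fall. Under quantile normalization, where the median of all features was 0.02, 33 fell and 13 rose. Over all 62803 features tested, 9270 fell and 12959 rose there, so rises outnumbered falls, the reverse of the main fit. On slide 2, with 2 arrays of day 7 and 1 of day 3, 75 RNAs were lower and 53 higher at day 7, with a median difference of -0.44, and the fit within that slide called 21 lower and 10 higher.

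Among the named RNAs, MOUSELNCRNA_44814 was on no array of day 7, which was at least 4.71-fold below day 3. The limma adjusted p of 0.000806 is for the change in measured signals, with day 7 at background, and does not test that bound. Within slide 2 the limma adjusted p of that change was 0.0525. MOUSELNCRNA_21372 fell by 2.25 in log2 units (SE 0.45, limma adjusted p = 0.00448) and MOUSELNCRNA_25722 by 2.23 (SE 0.26, limma adjusted p = 0.000282). For MOUSELNCRNA_21372, well above background on only 1 day 7 array, the size of that fall rests partly on signals at background. MOUSELNCRNA_29980 was not called, at 0.63 (SE 0.25, limma adjusted p = 0.0726). MOUSELNCRNA_25722 was thus lowest at day 7, while MOUSELNCRNA_29980 had its lowest mean at day 3.

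**Figure D4:**
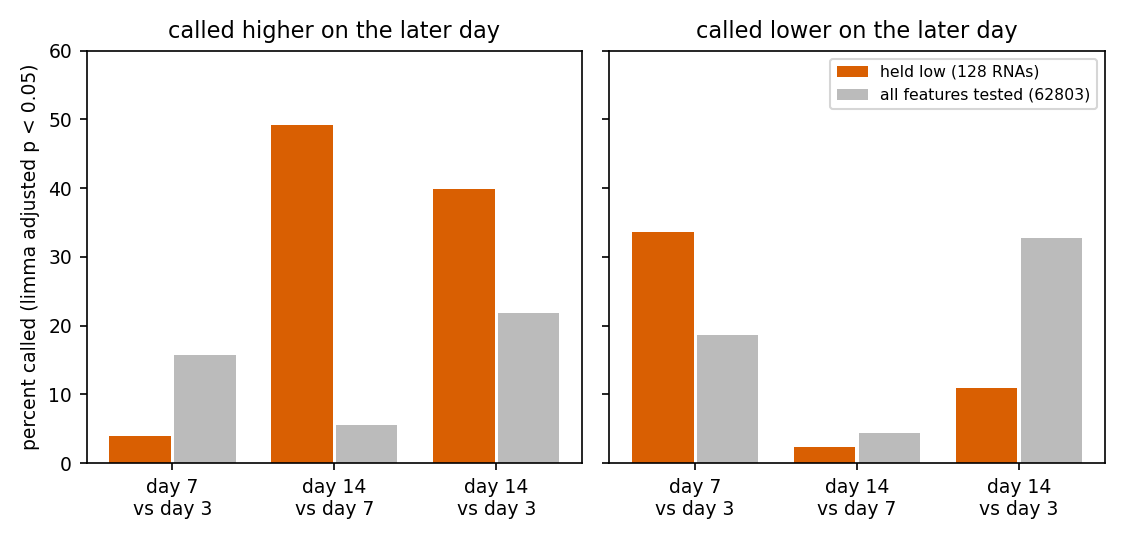
Percent of the 128 RNAs and of all 62803 features tested that were called higher (left) or lower (right) on the later day of each pair at a limma adjusted p below 0.05. At day 14 against day 7, 49.2% of the 128 RNAs were higher, against 5.61% of all features. At day 7 against day 3, 33.6% were lower, against 18.6%. The percentages of the 128 RNAs include RNAs at background on the days compared.

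Set side by side, the 3 comparisons sorted the RNAs into a few courses. The largest set, 35 RNAs, was called in none of them, which does not show that their levels were flat. A further 29 were higher at day 14 than on both earlier days with no call between day 7 and day 3, and 13 fell to day 7 and then rose above day 3. In all, 42 RNAs were above both earlier days at day 14. Another 12 were called lower at day 7 and higher again at day 14, with no call against day 3. These 12 include MOUSELNCRNA_34239, on no array of day 3 or day 7, and MOUSELNCRNA_12983, on none of day 7 or day 14. They also include MOUSELNCRNA_54934, on no later array. Calls between 2 days at background give no course for these RNAs. A further 10 fell to day 7 and were below day 3 at day 14 with no call between the last days.

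The 3 day 14 pools differed from one another in the same order across most of the 128 RNAs. Replicate 3 was the lowest of the day for 106 of them, replicate 1 for 18 and replicate 2 for 4. That is 82.8% for replicate 3, against 32.4% of the other eligible features. Replicate 2 was the highest for 83.6% of the RNAs, against 36.4% of the other eligible features. The median RNA lay 0.63 lower in replicate 3 than in the mean of replicates 1 and 2, while the median over all features was 0.01. All 3 arrays were on slide 3, and 64.2% to 64.6% of their spots were well above background. This order of pools is a description of 3 arrays, and its source was not tested. Without replicate 3, the calls were 69 higher and 1 lower for day 14 against day 7. For day 14 against day 3 they were 62 higher and 6 lower. Shares over all features are not given for that fit, so these counts are a description only.

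**Figure D5:**
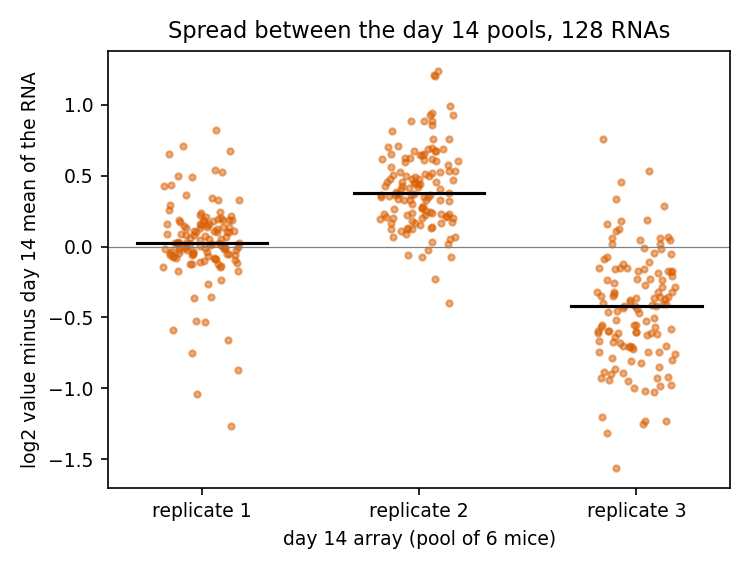
Log2 value minus the RNA's own day 14 mean on the y axis for the 128 RNAs in each of the 3 day 14 pools, with 1 point per RNA, spread sideways for visibility, and the median as a line. The medians are 0.03 in replicate 1, 0.38 in replicate 2 and -0.42 in replicate 3.

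The order was weaker on the other days. At day 7 the lowest array was replicate 3 for 65 RNAs (50.8%), against 11593 of the 32193 other eligible features. The highest day 7 array was replicate 2 for 55.5% of the RNAs, against 30.2% of the other eligible features. At day 3 no array was the lowest for more than 45 RNAs. At day 0 replicate 2 was the lowest for 73 RNAs (57.0%), against 29.0% of the other eligible features. Replicate 3 of day 0, the only one on slide 2, was the highest for 80 RNAs (62.5%), against 53.0% of the other eligible features. It lay 0.19 above the mean of replicates 1 and 2 in the median RNA.

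Overlapping probes gave a second reading of 12 RNAs. The 2 probes of a pair shared 38 to 59 bases and their values over the 12 arrays correlated at 0.962 to 0.9997, with a median of 0.995. The largest gap between their differences from day 0 had a median of 0.24, and the widest was 1.08. MOUSELNCRNA_77066, for instance, shared 55 bases with MOUSELNCRNA_58744, which averaged 13.85 at day 0, 7.39 at day 3, 6.20 at day 7 and 10.53 at day 14. Their differences from day 0 were within 0.0995 of each other. Such pairs read the same stretch of RNA and do not count as separate evidence. Both probes of these pairs met the rule, which favours like values. Another 4 probes overlapped members without meeting it. MOUSELNCRNA_33791 shared 50 bases with MOUSELNCRNA_36700 (r = 0.959) but differed from day 0 by -1.55, -2.29 and -2.66 at day 3, day 7 and day 14, against -3.29, -3.99 and -4.09 for MOUSELNCRNA_36700. The others missed by less: MOUSELNCRNA_87662 was at -2.41 and MOUSELNCRNA_4279 at -2.49 on day 14, and MOUSELNCRNA_270 had a day 0 mean of 7.997. No probe on the array read the opposite strand of a member.

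The hexamer AATAAA occurred in the probes of 43 of the 128 RNAs, or 33.6%, against 19.3% of the 32193 other eligible features and 14.7% of all features. The search read the probe strand only. The same letters on the other strand, TTTATT, were in 4.69% of the 128 probes, 4.45% of the other eligible features and 3.91% of all. The hexamer started at base 41 of 60 in the median probe that held it, and at base 31 or later in 38 of the 43, as in MOUSELNCRNA_84271 and MOUSELNCRNA_25722 above. Probes of the 128 RNAs had a median GC content of 36.7%, against 40% in the other eligible features and 41.7% in all features, and AT-rich probes hold the hexamer more often. Below 40% GC it was in 40.5% of the 128 RNAs' probes and 26.0% of the others, and at 40% GC or more in 24.1% and 14.1%. The share also went with the day 0 signal: it was 48.7% against 27.4% where the day 0 mean was at least 12, and 27.0% against 16.3% below that. No test was made of these shares, and a hexamer in a probe does not show that it is used.

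RNAs with the hexamer had median differences from day 0 of -3.74 at day 3, -3.99 at day 7 and -3.02 at day 14. Those without it had -4.27, -4.76 and -3.23. The ranges of both sets met the same threshold, so the medians are a description only.

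The edge of the rule cut through a continuous range. Just inside it were MOUSELNCRNA_71496, at -2.512 on day 14, and MOUSELNCRNA_86535, at -2.515 on day 7. Just outside were MOUSELNCRNA_22163, at -2.497 on day 3, and MOUSELNCRNA_4279, at -2.489 on day 14. On the day 0 level the nearest inside was MOUSELNCRNA_75220 at 8.03 and the nearest outside MOUSELNCRNA_43021 at 7.998. Without the condition on day 0, 236 features would meet the fall on all 3 days, 96 of them with a day 0 mean under 8.

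The features low on a given day were low on all 3 days to differing shares. Of the eligible features at least 2.5 below day 0, the 140 made up 18.2% of the 770 at day 3, 27.8% of the 504 at day 7 and 57.1% of the 245 at day 14. In the other direction, 257 features (242 RNAs after collapsing) stood at least 2.5 above day 0 on all 3 later days, with each later mean at least 8 and every later array well above background.

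Outside the 128 RNAs, the features whose 12-array course was most like their mean course were MOUSELNCRNA_25436 and MOUSELNCRNA_42597, each with a Pearson r of 0.997 over the 12 arrays. MOUSELNCRNA_25436 averaged 12.01 at day 0, 10.87 at day 3, 10.82 at day 7 and 11.05 at day 14. MOUSELNCRNA_42597 averaged 8.01 at day 0, 5.80 at day 3, 5.69 at day 7 and 6.28 at day 14. Their courses had the same shape with smaller differences from day 0, at day 3 -1.14 and -2.22, than the rule asks for.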

How the data were processed

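Total RNA of distal sciatic nerve was labelled with Cy3, per the labels' protocols, and hybridised to 12 arrays, grouped by the day in the labels. Spot intensity was deposited by the authors as Agilent Feature Extraction output, version 10.7 per the submitters' processing notes, and the processed intensity has its background subtracted and no scaling between arrays, per the file headers. The authors' deposited series table holds log2 values. All its columns had a median of 6.42 and equal quartiles, and they correlated at 0.993 to 0.9998 with log2 of the scanner signals (slopes 0.964 to 1.02), which fixes its scale and direction and shows no centring of features. How exactly it was made is not given in the sources used here.

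The RNAs were chosen, and all levels and differences from day 0 given, on the series table. Tests between later days used limma 3.58.1 (R 4.3.3) on log2 processed signals, with spots of a probe averaged, outlier and control spots left out and arrays scaled to a common 75th percentile. One fit covered all 12 arrays (8 residual degrees of freedom) and the 62803 features that were well above background on every array of some day, with Benjamini-Hochberg adjustment over all of them and calls below 0.05. That choice of features admitted every chosen RNA through day 0, whatever its later signal. The counts between later days, and the shares set against all features, therefore include RNAs at background on the days compared. The fit was tested on simulated data. Python 3.11.15 and pandas 2.3.3 were used for the rest.

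The members and lists were chosen with earlier results of these data known. Ranked on measured signals, those at background included, the text names the 10 RNAs with the largest mean fall, the 3 largest rises and falls of day 14 against day 3 among called RNAs, the 3 brightest at day 0, the features next to the thresholds and the 2 most alike non-members. Lists of marker genes could not be used, since features carry no gene names. Same-numbered arrays of day 7 and day 3, day 14 and day 7, and day 14 and day 3 deviated together at correlations of only -0.30 to 0.06, so the numbers do not pair these samples. Those of day 3 and day 0, on shared slides, did so at 0.32, 0.45 and 0.59, and that comparison is not tested here. Alternatives were other normalizations, background correction, filters, slide terms, replicate blocks, thresholds and leaving out each array.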

Additional observations from a re-analysis of the deposited data

How the results depend on the processing

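In all alternatives run, more RNAs fell than rose at day 7 against day 3, and more rose than fell in the other 2 comparisons. The median differences from day 0 stayed below 0, which the choice of the RNAs nearly fixes, so nothing is read from that sign. The count of RNAs called at day 7 against day 3 was 48. It was 31 with normexp background correction, 27 when features had to be well above background on all 12 arrays (which left 72 of the 128 RNAs), 31 within slide 2 and 31 at an adjusted p below 0.01. The count at day 14 against day 7 was 66, with 35 under the 12-array filter and 10 within slide 3. The count at day 14 against day 3 was 65, with 34 under the 12-array filter, 27 with slide as a fixed block and 43 with slide as a random block. With the replicate number as a block (the replicate block) the counts were 47, 59 and 62. Same-numbered arrays did not deviate together between these later days, but those of day 3 and day 0, which shared slides, did, at correlations of 0.32, 0.45 and 0.59. Leaving out 1 array at a time gave 37 to 55 calls for day 7 against day 3, 49 to 70 for day 14 against day 7 and 55 to 68 for day 14 against day 3.

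The number of RNAs held low was 128. It was 66 with normexp and quantile normalization, 259 with a fall of 2, 64 with a fall of 3 and 59 when every later array had to lie 2.5 below the lowest day 0 array. Without single arrays it ran from 109 to 145. The median difference from day 0 was -3.08 at day 3, -3.16 at day 7 and -2.67 at day 14 with normexp, whose offset of 50 raises dim signals. Within slide 2 it was -4.33 at day 3 and -4.66 at day 7. At day 7 it was also -4.55 on scanner signals (an alternative chosen after seeing the data), -4.62 with a fixed slide block and -4.58 with a random one. Without single arrays the medians ran from -4.26 to -4.10 at day 3, -4.54 to -4.33 at day 7 and -3.37 to -2.99 at day 14. The cause of these shifts was not tested, and no run isolated the effect of the normexp offset or of the filter. Alternatives on opposite-strand probes and gene lists gave no value, since no such probes and too few gene matches were found. Signals near background limit the deepest falls to bounds.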
